A study of Rattus norvegicus with 20 samples.

Results

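Transcripts of 8 genes of canonical Wnt signalling were followed in the accumbens shell, part of the ventral striatum that takes part in reward. They are the DNA-binding factors Lef1, Tcf7, Tcf7l1 and Tcf7l2, their coactivator Ctnnb1 (beta-catenin), and Axin2, Apc and Gsk3b, which take part in beta-catenin breakdown. Members were all probe sets that the array's gene table assigns to 1 of these genes alone, which gave 19 probe sets of 31099, and 8 genes of 14217. All animals were P (alcohol-preferring) rats, which were selectively bred to drink much ethanol by choice. The ethanol group (10 animals) had access to 15 and 30% ethanol as adolescents, and the water group (10 animals) drank water only. Each animal gave 1 array. The sources used here do not give sex, exact age or the time between drinking and tissue collection. Both groups were P rats, so neither shows how a non-preferring line would respond.

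Without a Wnt signal, a cytoplasmic complex built on Axin and APC holds beta-catenin while the kinase GSK3-beta phosphorylates it, which marks it for degradation. A Wnt ligand bound to its Frizzled and LRP receptors stops this, and beta-catenin then enters the nucleus and binds TCF and LEF proteins on DNA, where it replaces Groucho/TLE corepressors. Axin2 and Lef1 are themselves targets of the pathway in many cell types, so their transcripts are often read as its output. In adult brain, Lef1 is known from endothelial cells, where Wnt signalling maintains the blood-brain barrier, and from thalamic neurons, and Tcf7l2 is known from thalamic and habenular neurons and from cells of the oligodendrocyte lineage.

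The promoters of 2 members are shown, Lef1 because its probe sets carry the differences below, and Axin2 because it holds matches to the TCF and LEF motif. The sequences are RefSeq's for the rat assembly GRCr8, 5′ to 3′ on the gene's strand, from 250 bases before to 50 bases after the annotated start. Lef1 spans chr2:222340463-222340762 on the plus strand and Axin2 chr10:94398535-94398834 on the plus strand. Capitals mark matches to CTTTGAT or CTTTGAA, searched on both strands, and no match overlapped another.
Lef1: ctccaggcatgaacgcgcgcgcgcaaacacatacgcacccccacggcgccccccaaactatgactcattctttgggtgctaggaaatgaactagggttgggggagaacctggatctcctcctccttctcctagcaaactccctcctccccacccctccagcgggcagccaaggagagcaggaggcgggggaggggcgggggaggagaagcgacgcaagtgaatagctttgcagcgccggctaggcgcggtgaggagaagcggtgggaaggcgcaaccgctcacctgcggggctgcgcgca
Axin2: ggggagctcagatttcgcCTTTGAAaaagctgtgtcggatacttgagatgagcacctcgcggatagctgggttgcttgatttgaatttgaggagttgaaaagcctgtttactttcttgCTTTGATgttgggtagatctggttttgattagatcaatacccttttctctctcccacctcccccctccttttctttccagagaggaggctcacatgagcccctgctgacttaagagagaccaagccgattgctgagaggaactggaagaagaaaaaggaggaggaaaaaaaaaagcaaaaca
Axin2 held CTTTGAA with its first base 232 bases before the start, and CTTTGAT 132 bases before it. Of the 8 member promoters, 2 held a match, the other being Tcf7, with CTTTGAT 4 bases before its start. Among all 33469 promoters of this length, 8.73% held a match and 0.571% held 2 or more. The Lef1 window held neither motif, which says only that these letters are not in it.

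Values were log2 RMA values deposited by the authors, that is, background-corrected, normalized between arrays and summarised per probe set. Their levels can be compared between animals for a probe set but not between probe sets. The 33.3% of probe sets with the lowest mean (below 6.65) were left out of the fit as dim, since the deposited values carry no measure of background. Of the 19 member probe sets 15 stayed in, from 7 genes, and 4 were left out, among them the single Tcf7 probe set. Array medians lay between 7.93 and 7.98. Water animals 12, 17 and 20 correlated least with the other arrays, and water animals 17, 19 and 20 had the lowest medium spiny neuron levels. Marker genes of the main projection cell of the labelled tissue, the medium spiny neuron, were all above the filter. These were 20 on the array, the D1 and D2 dopamine receptor genes Drd1 and Drd2 among them. Of thalamus and habenula genes 15 of 20 were above it too, and of septum, pallidum and basal forebrain genes 10 of 12. Passing the filter therefore does not tell the shell from other tissue.

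The genes were chosen by this same contrast, since a Lef1 probe set had been seen to be lower in ethanol in these arrays. All ethanol minus water differences of the members are therefore a description, and an adjusted p-value beside one says only where it stood in a limma fit over all 20695 probe sets (Benjamini-Hochberg). In that fit 1 member probe set of 15 passed at 0.05, lower in ethanol, and 14 did not. Of all probe sets tested 0.0966% passed in either direction, 0.0435% passed as lower and 0.0532% as higher in ethanol. Unadjusted p-values under 0.05 were found for 4 of the 15, against 12.1% of all probe sets. The members' median difference was -0.015 on the log2 scale, beside -4.27e-07 over all probe sets. Negative differences were found for 8 of the 15, beside 50% of all probe sets.

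**Figure D1:**
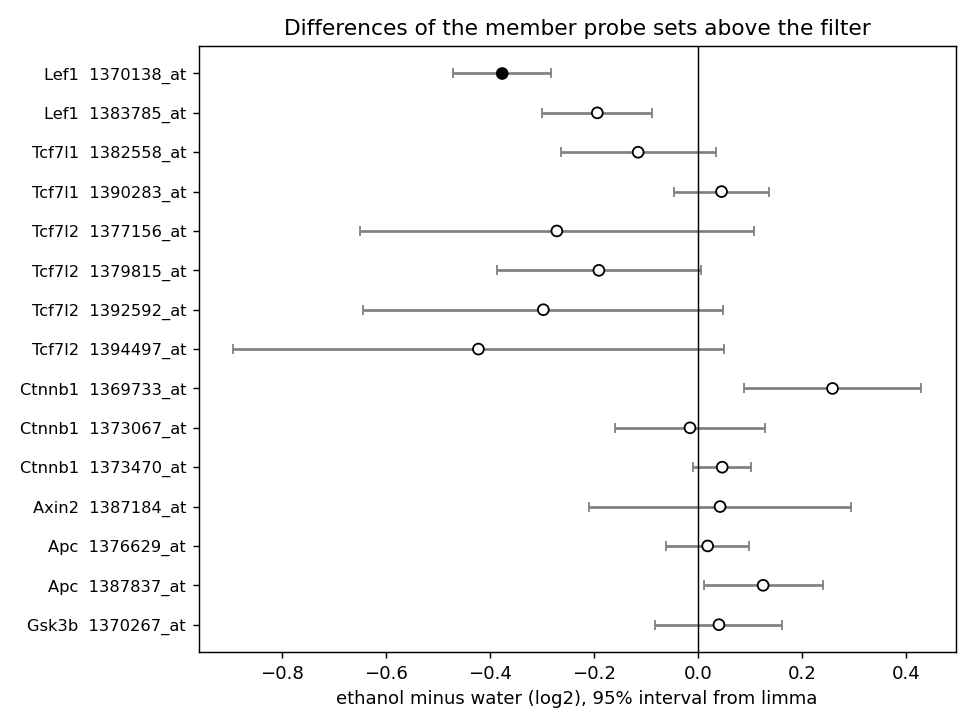
Ethanol minus water differences on the log2 scale (x axis) for the 15 member probe sets above the filter, with 95% intervals from limma. The filled point, Lef1 1370138_at at -0.38, passed at an adjusted p of 0.05, and the 14 open points did not.

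Lef1, lymphoid enhancer-binding factor 1, passed as lower in ethanol on 1 of its 2 probe sets, and the other had a difference of the same sign that did not pass. On the dimmer one, 1370138_at, designed on a RefSeq mRNA, values ran from 6.42 to 6.74 with a median of 6.64 in ethanol animals, against 6.83 to 7.15 with a median of 7.0 in water animals. The groups did not overlap, and a gap of 0.082 separated the highest ethanol value (animal 10) from the lowest water value (animal 16). The difference was -0.38 ± 0.045 (SE), which is 1.30-fold lower in ethanol (adjusted p = 0.000765), and this probe set ranked 1 by p among the 20695. With each array's gap between 3′ and 5′ control probe sets as a covariate the difference was -0.33 (adjusted p = 0.00537, limma). Groups that did not overlap were found for 1 of the 15 members, beside 0.0483% of all probe sets in either direction and 0.00966%, or 2 probe sets, with ethanol lower.

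The level of that probe set lay near the dim end of the table, at percentile 35.4 of all probe sets by mean. In ethanol, 5 of the 10 values were below the 6.65 level used as the filter, and in water 0 of 10 were. The water mean lay 0.35 above that level. RMA compresses differences of dim probe sets, so the fold is that of the deposited values and the ratio of transcripts is not known. With the filter raised to the median level this probe set is left out, and 0 members passed.

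The brighter Lef1 probe set, 1383785_at, at percentile 59.4, showed a smaller difference of the same sign. Its values ran from 8.37 to 8.77 with a median of 8.53 in ethanol, against 8.64 to 8.84 with a median of 8.75 in water. In ethanol, 7 of 10 animals lay below all water animals, while animals 1, 5 and 9 lay within the water range. The difference was -0.19 ± 0.051 (SE, 95% interval -0.30 to -0.088, adjusted p = 0.216), rank 96 by p, and with each array's gap between 3′ and 5′ control probe sets as a covariate it was again -0.19 (unadjusted p = 0.00358, adjusted p = 0.596, limma). The SD between animals was 0.14 in ethanol and 0.064 in water. Which part of the Lef1 transcript each probe set reads is not given in the sources used here.

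**Figure D2:**
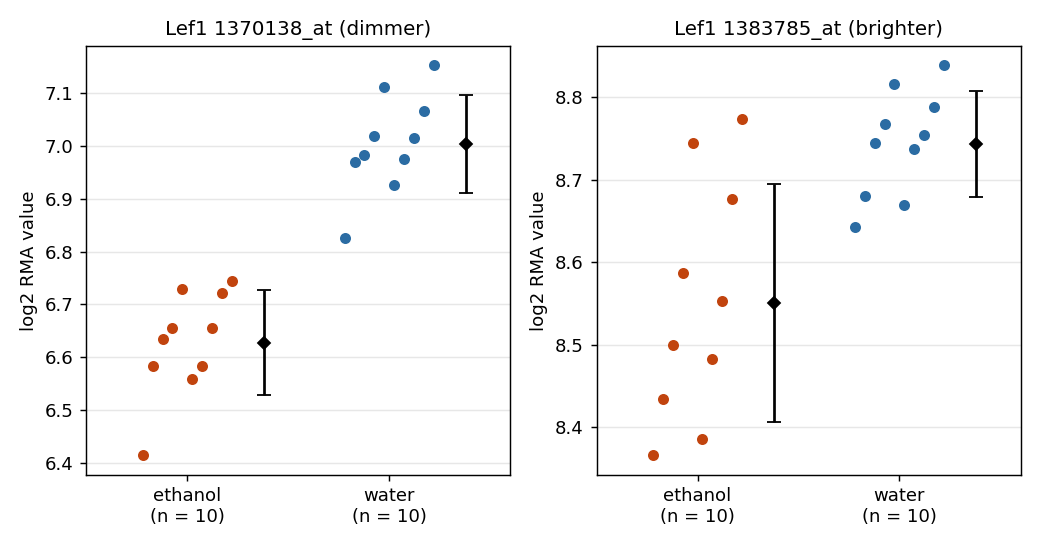
Log2 RMA values of both Lef1 probe sets (y axis) in each ethanol and water animal, with the mean and SD as a diamond and bar beside each group (horizontal offsets carry no meaning). On 1370138_at the highest ethanol value, 6.74, lies below the lowest water value, 6.83, and on 1383785_at ethanol animals 1, 5 and 9 overlap with water.

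Lef1 was chosen by a difference between groups, whose p-value also depends on the spread within groups. How its values vary together with other genes within groups is another question, and such relations were tested. Values were centred on their group mean, and 46 relations of members with each other or with the means of cell type lists were computed, with permutation within groups (two-sided, 100000 resamples). Adjusted p-values are over these 46. No relation between the 2 Lef1 probe sets was detectable, with r at -0.21 (p = 0.402, adjusted p = 0.676, permutation, n = 20) and rho at -0.047 (p = 0.852, permutation). Without the 2 animals farthest out, 1 and 16, r was 0.028.

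The brighter Lef1 probe set was lower in animals with higher oligodendrocyte and myelin transcripts. Its r with the mean of 19 measured oligodendrocyte genes was -0.59 (p = 0.00243, adjusted p = 0.0124, permutation, n = 20), and rho was -0.69 (p = 0.00058, adjusted p = 0.0058, permutation). The sign was the same in each group, at r = -0.64 in ethanol and -0.68 in water, and r was -0.48 without animals 8 and 17, the 2 farthest out. Without water animals 17, 19 and 20 r was -0.62 (adjusted p = 0.138, permutation) and rho -0.74 (adjusted p = 0.0205, permutation). The dimmer probe set had an r of -0.22 with the same list (p = 0.369, adjusted p = 0.654, permutation, n = 20), and whether the 2 values of r differ was not tested.

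The mean of the oligodendrocyte list ran from 10.72 to 11.58 in ethanol animals and from 10.68 to 11.59 in water animals. All 19 measured genes had negative differences, with a median of -0.15, and 0 passed. Water animals 17, 20 and 19 were the highest of the water group on this list, at 11.59, 11.49 and 11.45. The next water animal, 16, was at 11.33. Water animals 12, 13, 14, 15, 18 and 21 were at 11.06, 10.87, 10.68, 10.79, 11.01 and 11.16. The ethanol mean of the list was 10.99, so almost all of the difference of the list mean rested on animals 17, 19 and 20. Gene by gene, the differences without these animals were not computed. With that list mean as a covariate the brighter Lef1 probe set differed by -0.23 and passed (adjusted p = 0.0466), and the dimmer one differed by -0.39 (adjusted p = 0.000336). In bulk tissue, the number of cells of a type and the RNA per cell cannot be told apart, and no cause of these list differences was tested.

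**Figure D3:**
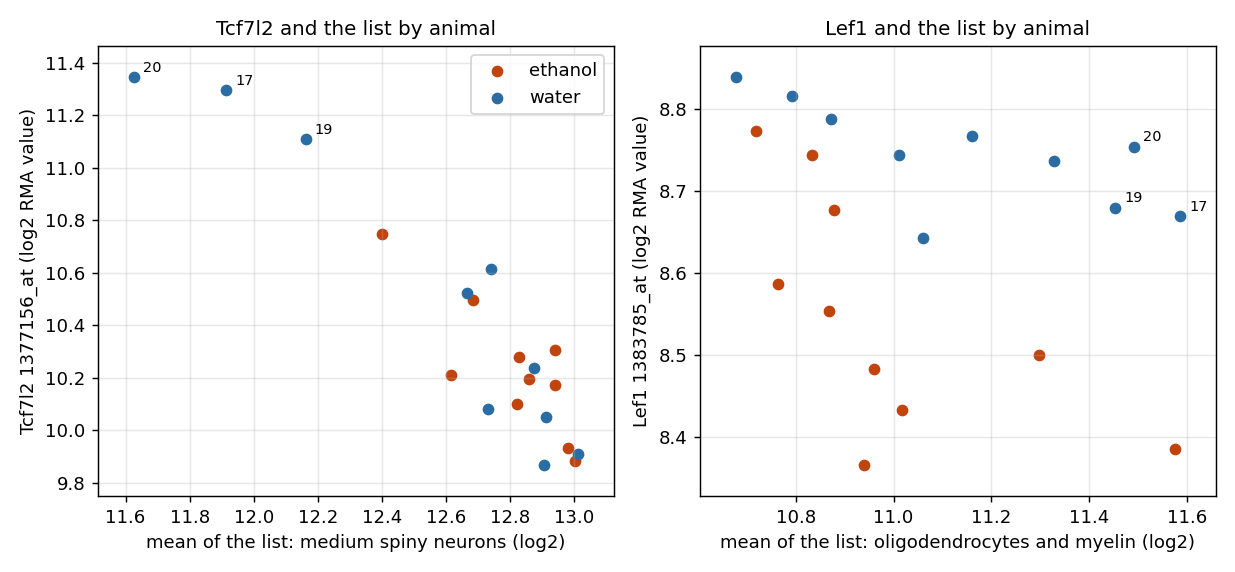
Left, log2 RMA value of Tcf7l2 1377156_at (y axis) against the mean of the medium spiny neuron list (x axis, log2); right, Lef1 1383785_at against the mean of the oligodendrocyte and myelin list; 1 point an animal, with water animals 17, 19 and 20 numbered. Tcf7l2 is highest in those 3 animals, where the neuron list is at its lowest, and with the oligodendrocyte list as a covariate Lef1 differed by -0.23 between ethanol and water.

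Endothelial markers, from cells in which Lef1 is known to act, overlapped between the groups. Their list mean (18 of 21 genes on the array above the filter; Flt1, Foxq1 and Plvap below) ran from 8.86 to 9.07 in ethanol and from 8.84 to 9.03 in water. The median gene difference was 0.052, and 0 genes passed. By gene, 12 were above and 6 below 0, and 6 of the 22 probe sets had an unadjusted p under 0.05, beside 12.1% of all probe sets. The 3 genes of smallest p lay on both sides, with Egfl7, a protein that endothelial cells secrete, at 0.18, Sox18, a transcription factor of vessels, at -0.20, and Tie1, a receptor kinase of endothelium, at 0.20 (adjusted p = 0.225, 0.259 and 0.283, limma). These 3 were named after their values were seen. Within groups, r with the endothelial list was 0.38 for the brighter and 0.010 for the dimmer Lef1 probe set (adjusted p = 0.327 and 0.967, permutation, n = 20).

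No relation of the dimmer Lef1 probe set with the neuron lists was detectable, at r = 0.015 for medium spiny neurons and 0.18 for thalamus and habenula (adjusted p = 0.967 and 0.676, permutation, n = 20). For the brighter one r with medium spiny neurons was 0.39 (adjusted p = 0.0646) and rho 0.55 (adjusted p = 0.0232, both permutation, n = 20). Without outlying water arrays 12, 17 and 20 that r was 0.55 (adjusted p = 0.0333, permutation), and without water animals 17, 19 and 20 it was 0.62 and did not pass (adjusted p = 0.138, and 0.116 for rho, permutation). Its r with the thalamus and habenula list was -0.10 (adjusted p = 0.754, permutation, n = 20). T cell markers, named because lymphocytes carry Lef1 and Tcf7, were below the filter for 9 of 11 genes on the array, Cd3e, Cd3d, Cd3g, Cd4 and Cd8a among them.

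Among 14817 probe sets above the filter that name 1 gene, the 5 most like each Lef1 probe set were found by r over the 20 centred values. For the dimmer one they were Pde4d, a cyclic AMP phosphodiesterase (r = 0.71), Fam20b, a kinase of proteoglycan linkers (0.71), Aen (0.70), Nipbl, a cohesin loader (0.67), and Tmem276 (0.64). For the brighter one they were Fndc3b (0.81), Fscn1, an actin-bundling protein (0.75), Jag1, a Notch ligand (0.74), Zfp609 (0.74) and Tmem204 (0.72). The 2 sets of 5 names share 0 genes. Each is the extreme of a search over all candidates and has no test.

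None of the Tcf7l2 probe sets passed. All 4 above the filter were lower in ethanol on average, at -0.27, -0.19, -0.30 and -0.42 for 1377156_at, 1379815_at, 1392592_at and 1394497_at (adjusted p between 0.423 and 0.538). The brightest, 1377156_at, ran from 9.88 to 10.75 with a median of 10.20 in ethanol, against 9.87 to 11.35 with a median of 10.38 in water. All ethanol values lay within the water range, and the water group was spread far wider, with an SD of 0.57 against 0.25 in ethanol.

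Water animals 17, 19 and 20 stood above all others on that probe set, at 11.30, 11.11 and 11.35, while the highest ethanol value was 10.75 and the highest of the other 7 water animals 10.62. They were also the 3 highest water animals on the other 3 tested probe sets, reaching 8.03, 7.80 and 7.80 on 1379815_at, where the next water animal was at 7.71. On 1392592_at they were at 7.92, 7.97 and 7.97, with the next at 7.07, and on 1394497_at at 8.28, 7.61 and 8.43, with the next at 7.56. The fifth probe set, 1378048_at, was below the filter, and there they were at 6.51, 6.49 and 6.88, with the next at 6.40. Water SDs were between 2.25 and 4.32 times the ethanol SDs over the 5 probe sets.

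**Figure D4:**
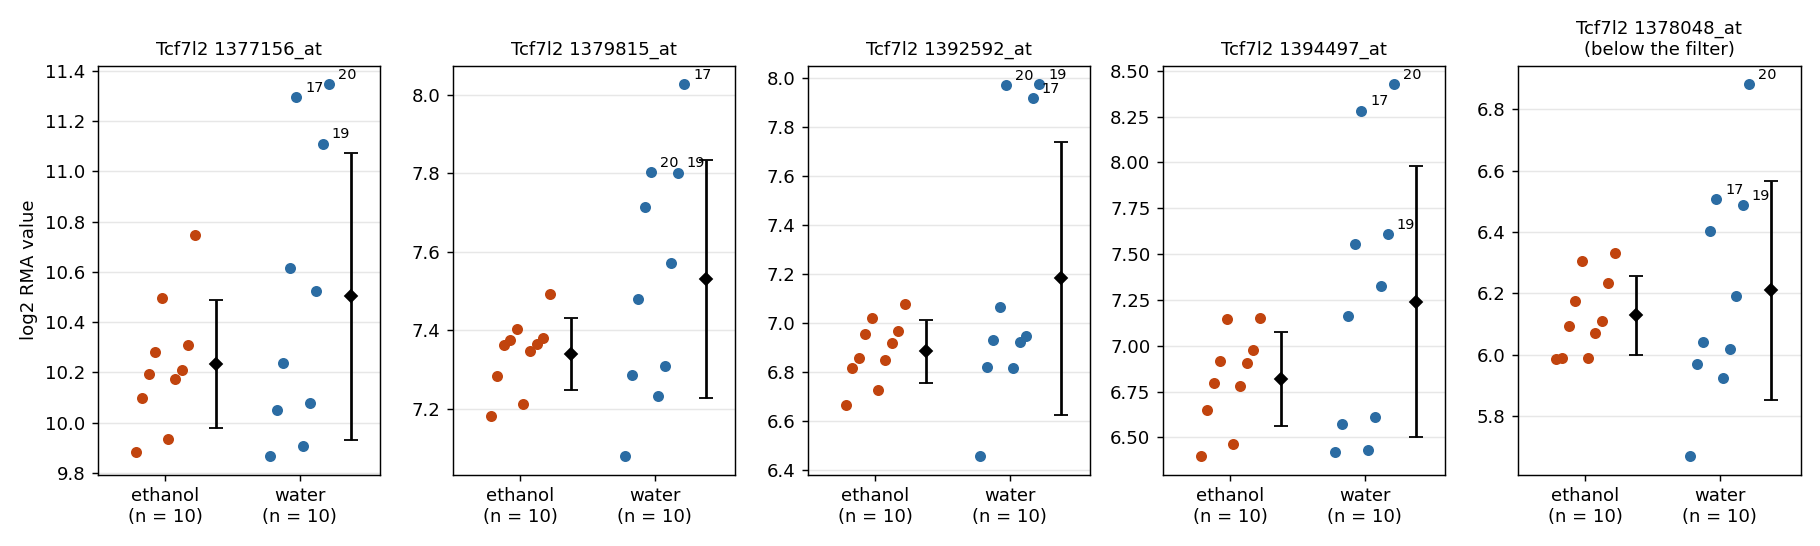
Log2 RMA values of the 5 Tcf7l2 probe sets (y axes) in each ethanol and water animal, with the mean and SD as a diamond and bar (horizontal offsets carry no meaning). Water animals 17, 19 and 20 are the 3 highest water values in every panel.

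Without those 3 animals the differences of the 4 tested Tcf7l2 probe sets were 0.049, -0.042, 0.034 and -0.051, in the same order, so the size of the lower ethanol level rested on them. The 3 animals were singled out after these data were seen, as arrays that stood apart, and they also had the 3 lowest medium spiny neuron list means. Over the other 17 animals, r of 1377156_at with the medium spiny neuron list was -0.78 (p = 0.00028, adjusted p = 0.00644, permutation) and rho -0.69 (p = 0.00363, adjusted p = 0.0417, permutation). Without animals 7 and 8, the 2 farthest out, r was -0.78. It was -0.83 within ethanol animals and -0.77 within the other 7 water animals.

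The list mean of 20 medium spiny neuron genes ran from 12.40 to 13.004 in ethanol animals, against 11.63 to 13.01 in water animals, where animals 20, 17 and 19 were the lowest. All 20 genes had positive differences, with a median of 0.24, and 0 passed. Water animals 20, 17 and 19 were at 11.63, 11.91 and 12.16, and the next water animal, 12, was at 12.67. Water animals 12, 13, 14, 15, 16, 18 and 21 were at 12.67, 12.74, 12.87, 12.91, 12.73, 13.01 and 12.91. The ethanol mean of the list was 12.81, so the positive difference of the list mean rested on animals 17, 19 and 20. Gene by gene, the differences without these animals were not computed. The thalamus and habenula list (15 of 20 genes on the array above the filter; Ramp3, Lhx9, Zic1, Pou4f1 and Synpo2 below) ran from 8.46 to 8.83 in ethanol, against 8.35 to 9.08 in water, with animal 20 highest. Over 17 animals r of Tcf7l2 with it was 0.51 (p = 0.0443, adjusted p = 0.184, permutation) and rho 0.45 (p = 0.0828, permutation). With the oligodendrocyte list, r over 17 animals was 0.33 (p = 0.196, adjusted p = 0.397, permutation). Over all 20 animals Tcf7l2 passed with the medium spiny neuron, thalamus and oligodendrocyte lists (adjusted p = 0.00023, 0.00304 and 0.0146, permutation). With the medium spiny neuron list as a covariate, the ethanol minus water differences of 1377156_at, 1379815_at, 1392592_at and 1394497_at were 0.013, -0.069, -0.053 and -0.088. With the oligodendrocyte list as a covariate they were -0.11, -0.13, -0.17 and -0.26, and none passed in either fit (adjusted p of at least 0.613, limma).

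The tested Tcf7l2 probe sets were also set against each other. Over 17 animals, 1377156_at and 1394497_at had an r of 0.86 (p = 1e-05, the smallest the resamples can give, adjusted p = 0.00276, permutation). The other 5 pairs had r between 0.41 and 0.57 over the 17, and none passed (adjusted p between 0.138 and 0.397, permutation). Over all 20 animals all 5 passed (adjusted p between 0.00304 and 0.0117, permutation), but 3 of those animals stand apart, so no r over 20 is given for these pairs. Genes most like 1377156_at over 20 animals, the same 3 included, were Nap1l5 (r = 0.97), Arl10, Apeg3, Fbxl17l1 and Kcns3, a potassium channel subunit (each 0.97). Over 17 animals their r lay between 0.91 and 0.92. The brightest Tcf7l2 probe set and Lef1 gave r = 0.069 for the dimmer and -0.42 for the brighter Lef1 probe set over 17 animals (adjusted p = 0.898 and 0.262, permutation). Both of these relations were added after the data were seen.

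Tcf7l1, which acts mainly as a repressor of Wnt targets, had 2 probe sets with differences of opposite sign. On 1382558_at, near the filter, it was at 6.64 ± 0.17 in ethanol and 6.75 ± 0.16 in water (SD, n = 10 each), a difference of -0.11 (adjusted p = 0.513, limma). On 1390283_at it was at 7.48 ± 0.085 in ethanol and 7.43 ± 0.097 in water (SD, n = 10 each), a difference of 0.046 (adjusted p = 0.666, limma). Within groups these had an r of 0.066 (p = 0.786, adjusted p = 0.865, permutation, n = 20) and a rho of 0.074 (p = 0.760, permutation), with r at 0.74 among ethanol and -0.57 among water animals, a difference that was not tested. Tcf7, best known from T cells, was read by 1 probe set below the filter, which ran from 6.22 to 6.90 with a median of 6.60 in ethanol, against 6.38 to 6.69 with a median of 6.50 in water.

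Ctnnb1 encodes beta-catenin, which also links cadherins to the cytoskeleton, and its 4 probe sets are given one by one. On 1369733_at, designed on a RefSeq mRNA, values ran from 10.07 to 10.55 with a median of 10.43 in ethanol, against 9.71 to 10.48 with a median of 10.12 in water. The ethanol animals were mostly the higher ones, 9 of 10 above the water mean, but the ranges overlapped. The difference was 0.26 ± 0.082 (SE, 95% interval 0.089 to 0.43, adjusted p = 0.287, limma), and it was 0.10 with each array's gap between 3′ and 5′ control probe sets as a covariate (adjusted p = 0.748, limma). That gap, a sign of RNA integrity, ran from 1.03 to 1.35 in ethanol and from 0.999 to 1.46 in water. It leaned higher in water, where animals 12, 13, 14, 17 and 18 lay above all ethanol animals (1.41, 1.41, 1.37, 1.44 and 1.46). Water animal 16, at 0.999, lay below all ethanol animals. The part of the gap in these differences was not tested beyond these fits.

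The brightest Ctnnb1 probe set, 1373470_at, had the smallest SD of all 15 members tested in both groups, at 14.26 ± 0.033 in ethanol and 14.21 ± 0.039 in water (SD, n = 10 each). It differed by 0.047 (95% interval -0.0091 to 0.10, adjusted p = 0.476, limma), with 10 of 10 ethanol animals above the water mean. On 1373067_at the difference was -0.015 (interval -0.16 to 0.13, adjusted p = 0.945), and water animal 18 lay apart at 12.04, the next water animal being at 12.44. The fourth, 1375284_at, was below the filter, at 5.09 in ethanol and 5.01 in water on average.

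Axin2, a scaffold of the breakdown complex and the target gene often used to read the pathway, did not pass. Its single probe set, 1387184_at, ran from 7.85 to 8.48 with a median of 8.17 in ethanol, against 7.60 to 8.72 with a median of 8.10 in water. Ethanol values all lay inside the water range, and 5 of 10 were above the water mean. The difference was 0.043 ± 0.12 (SE, 95% interval -0.21 to 0.29, adjusted p = 0.90, limma). It was 0.17 with array weights, 0.12 without outlying arrays, 0.10 without water animals 12 and 13 and 0.0065 with the gap between 3′ and 5′ control probe sets as a covariate, and did not pass in any of these. Within groups, r of Axin2 with the 4 cell type lists lay between -0.18 and 0.11, and none passed.

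Apc, the scaffold that also binds microtubules, and Gsk3b, the kinase, did not pass. On 1376629_at Apc ran from 11.06 to 11.20 in ethanol and from 10.97 to 11.32 in water, a difference of 0.019 (95% interval -0.061 to 0.099, adjusted p = 0.856). On 1387837_at, designed on a RefSeq mRNA, it ran from 8.78 to 9.12 in ethanol and from 8.61 to 9.11 in water, a difference of 0.13 (interval 0.011 to 0.24, adjusted p = 0.389), which was 0.061 with the gap between 3′ and 5′ control probe sets as a covariate (adjusted p = 0.806). The third, 1379840_at, was below the filter, at 6.37 in ethanol and 6.24 in water on average. Gsk3b on 1370267_at ran from 10.88 to 11.20 in ethanol and from 10.85 to 11.39 in water, a difference of 0.041 (interval -0.081 to 0.16, adjusted p = 0.787). Without water animals 12 and 13, the first of which was the highest, it was 0.10 (unadjusted p = 0.0278, adjusted p = 0.373, limma).

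The rest of the pathway was read from 6 lists with 134 further genes, of which 111 were on the array and 83 above the filter. Over their 131 probe sets 0 passed in either direction by limma, beside 0.0966% of all probe sets, and 20 (15.3%) had an unadjusted p under 0.05, beside 12.1%. By 1 probe set a gene, 41 were higher and 42 lower in ethanol, with a median of -0.00037. The values below are of genes with the smallest p in each list.

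Among ligands (8 genes measured) Wnt11 and Wnt5b, which signal mainly without beta-catenin, were 0.13 and 0.15 higher in ethanol, and Wnt2, a ligand of the beta-catenin branch, differed by -0.088 (adjusted p = 0.338, 0.359 and 0.632, limma). Among receptors and Dishevelled proteins, 11 of 14 genes were on the higher side, with a median of 0.062. Fzd4, the endothelial receptor for Norrin and Wnt ligands, differed by 0.11, Fzd8 by 0.19 and the Wnt-binding Ryk by 0.080 (adjusted p between 0.414 and 0.473). Wnt11, Wnt5b and Fzd4 averaged 7.09, 7.12 and 7.87 in ethanol, against 6.96, 6.97 and 7.76 in water.

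Among inhibitors (8 genes measured) Apcdd1, a membrane antagonist that Wnt signalling itself induces, was at 8.15 ± 0.12 in ethanol and 7.96 ± 0.14 in water (SD, n = 10 each), a difference of 0.19 (adjusted p = 0.282, limma). Nkd1, a feedback inhibitor of Dishevelled, differed by -0.083, and Sfrp1, a secreted Wnt-binding protein, by -0.16 (adjusted p = 0.446 and 0.489). Of the target list (14 genes measured, 1 probe set a gene) the smallest p was that of Jun, with a difference of 0.29 (adjusted p = 0.27, limma). Jun is an AP-1 subunit that many stimuli induce. Over all 22 probe sets tested in this list the lowest adjusted p was 0.259 (limma). Without water animals 17, 19 and 20 a Jun probe set passed, as it did with array weights or with the oligodendrocyte or medium spiny neuron list as a covariate.

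In the breakdown complex (18 genes measured, median -0.0062) Ppp2r5a, a phosphatase subunit, differed by 0.15, Frat2, a GSK3-binding protein, by 0.056 and the tankyrase Tnks2 by 0.095 (adjusted p = 0.387, 0.519 and 0.524). Among nuclear and junctional partners of beta-catenin (24 genes measured) 16 were lower, with a median of -0.027. Hipk2, a nuclear kinase, differed by -0.24, Cdh2, N-cadherin, by -0.14, and Sox17, an endothelial factor that can bind beta-catenin, by -0.23 (adjusted p = 0.304, 0.306 and 0.314, limma).

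**Figure D5:**
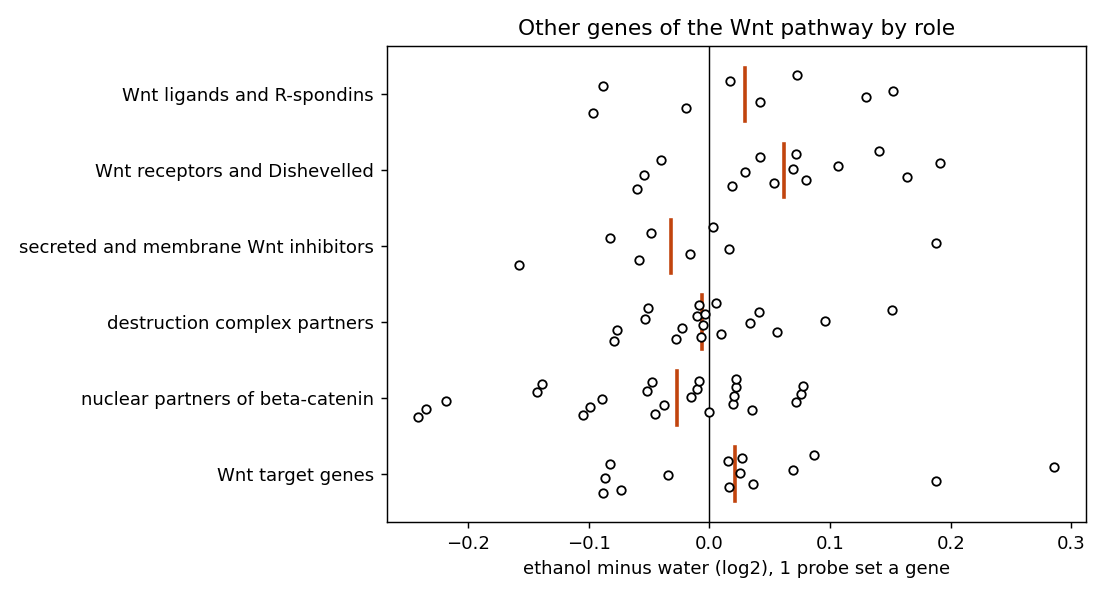
Ethanol minus water differences (x axis, log2, 1 probe set a gene) for genes of 6 Wnt pathway lists, 1 point a gene, with the list median as a bar. Medians lie between -0.032 for the inhibitors and 0.062 for the receptors, and no gene passed in the fit over all probe sets.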

How the data were processed

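The members and gene lists were chosen with earlier results of these data known. The authors deposited log2 values, processed with RMA per the submitters' processing notes, and the sources used here give neither software version nor chip definition. Per the labels' protocols, biotin-labelled cRNA was made with a 3′ in vitro transcription kit, so values depend on RNA integrity. Groups were taken from the sample titles, which number the animals separately. All 20 sample columns were used. Of probe sets that name 1 gene, 20758 matched RefSeq's table for GRCr8 by gene identifier.

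Ethanol minus water was fitted with limma 3.58.1 in R 4.3.3 (lmFit, eBayes, two-sided, no covariates) on 20695 probe sets, after 57 controls and the 33.3% of probe sets of lowest mean were left out, with Benjamini-Hochberg adjustment and a threshold of 0.05. SE and 95% intervals are from the moderated variance. A gene in a list stands as its probe set with the highest mean. Named genes were all members, list genes past the threshold or the 3 of smallest p, and the 5 most alike by r, with 3 endothelial genes added after their values were seen. Arrays 12, 17 and 20 of the water group were called outlying for a low median correlation with the rest (more than 3 scaled median absolute deviations). The fit and the permutation test were tested on simulated data. The number of arrays limits the precision. In some alternatives arrays 17, 19 and 20, or 12 and 13, were left out, a choice that earlier results of these data had put forward. Others changed the filter, normalization, variance model, weights, arrays, covariates or threshold.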

Additional observations from a re-analysis of the deposited data

Results flagged for a closer look

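Of 38 groups of 10 values (19 member probe sets in ethanol and in water), 2 held an animal whose gap to the next was large for the range, and chance gives about 1 such group in 20. On Ctnnb1 1373067_at water animal 18 was lowest at 12.04, with the next at 12.44. On Gsk3b 1370267_at water animal 12, one of the outlying arrays, was highest at 11.39, with the next at 11.10.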

How the results depend on the processing

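The dimmer Lef1 probe set stayed lower and past the threshold in 13 of 13 alternatives in which it was tested. Differences ran from -0.39 to -0.33 and adjusted p-values from 0.000336 to 0.00537 (limma). Among these, the threshold of 0.1 is the main fit at a looser cutoff and could not fail. As the gene was chosen by this contrast in these arrays, the tally is a description only. With the filter raised to the median level the dimmer probe set was not tested, and 0 members and 10 probe sets in all passed there. The brighter one lay between -0.23 and -0.19 and passed in 1 of 14 (adjusted p from 0.0466 to 0.596), so that 2 member probe sets passed with the oligodendrocyte list as a covariate. In place of 20 probe sets among all tested, 38 passed with array weights, 50 without water animals 17, 19 and 20, 8 with 3′ minus 5′ values in the model, 48 with the medium spiny neuron list as a covariate and 32 at a threshold of 0.1. In place of 0, 1 further pathway probe set, of Jun, passed with array weights, without water animals 17, 19 and 20, and with either list as a covariate. The sign turned for Apc 1376629_at with array weights (-0.018), without outlying arrays (-0.030), without water animals 17, 19 and 20 (-0.0021) and with the 3′ minus 5′ value (-0.034); for Ctnnb1 1373067_at without outlying arrays (0.017), without the 3 water animals (0.042) and with the medium spiny neuron list (0.023); for Tcf7l2 1377156_at without the 3 animals (0.049) and with that list (0.013); and without the 3 animals for Tcf7l2 1392592_at (0.034) and Gsk3b (-0.010). None of these passed in either setting. Their causes were not tested. Relations within groups that passed numbered 10 over 20 animals, 10 without outlying arrays and 2 without the 3 animals. The sign of r turned for the brighter Lef1 probe set with the thalamus list (0.11) and Tcf7l2 with the endothelial list (-0.031) without the 3 animals, for the dimmer Lef1 probe set (-0.0040) and Tcf7l2 (-0.13) with the endothelial list without outlying arrays, and for Gsk3b with the thalamus list in both settings (0.58 and 0.13). It also turned without the 3 animals for Axin2 with the thalamus list (-0.095) and Ctnnb1 with the endothelial list (0.010), and without the 3 animals and without outlying arrays for Apc with the oligodendrocyte list (0.30 and 0.43) and with the medium spiny neuron list (-0.094 and -0.28). No paired analysis was possible because the groups share no animal numbers. Dim level limits Lef1 1370138_at, Tcf7 and Tcf7l1 1382558_at.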

Other observations

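Gsk3b had an r of 0.31 with the endothelial list over 20 animals (p = 0.188, adjusted p = 0.412, permutation) and a rho of 0.36 (p = 0.126, permutation), with r at 0.85 among ethanol and -0.072 among water animals. Whether the groups differ was not tested. Without the 2 animals farthest out, 5 and 20, r was 0.33. Without outlying water arrays 12, 17 and 20 r was 0.80 (adjusted p = 0.00721, permutation), and without water animals 17, 19 and 20 it was 0.50 and did not pass (adjusted p = 0.162, and 0.116 for rho, permutation). With the thalamus and habenula list its r was -0.13 over 20 animals (adjusted p = 0.839, permutation) and 0.58 over the 17 without water animals 17, 19 and 20 (adjusted p = 0.138, permutation), where rho was 0.70 (adjusted p = 0.0417, permutation). The difference of the dimmer Lef1 probe set was 1.95 times that of the brighter one on the log2 scale.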
